A study of Arabidopsis thaliana with 18 samples.

Results

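Arabidopsis carries 9 genes named as calmodulins, CAM1 to CAM9, and their transcript levels are described here in 18 RNA-seq libraries of seedlings. The members were taken by locus: CAM1 is AT5G37780, CAM2 AT2G41110, CAM3 AT3G56800, CAM4 AT1G66410, CAM5 AT2G27030, CAM6 AT5G21274, CAM7 AT3G43810, CAM8 AT4G14640 and CAM9 AT3G51920. All 9 were found among the 32833 loci of each table. The family was picked because CAM7 was higher in dark-grown cry2 seedlings, so that difference and every other value of the same contrast are given as description, with no test.

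Seedlings were 4 days old, raised on half-strength Murashige-Skoog medium. The 5 groups were cry2-1 in darkness (n = 3), cry2-1 after blue light (n = 3), Col-0 wild type after blue light (n = 3), the quadruple mutant flΔ4 (fkd1 fl1-2 fl2 fl3) in darkness (n = 3) and Col-0 in darkness (n = 6). Blue light means darkness followed by 30 min at 30 µmol per square metre per second. CRY2 is a blue-light receptor, and FKD1 (FORKED1) acts in the patterning of leaf veins. Dark wild-type libraries were set against mutants in the order of their title numbers, 1-3 with cry2 and 4-6 with flΔ4, which the labels do not state. No label says that libraries of a group came from separate cultures, so p-values measure the spread between libraries, which may be technical. In whole seedlings, fewer cells of a type and less RNA per cell cannot be told apart.

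Calmodulin is a small protein with EF-hand loops that bind calcium ions. Once loaded with calcium it exposes surfaces that grip target enzymes, pumps, channels and transcription factors, and so passes calcium signals on. In Arabidopsis seedlings CAM7 has also been reported to bind the Z-box and G-box of light-regulated promoters and to act together with HY5, a bZIP factor that promotes development in light. CAM8 and CAM9 are more divergent members of the family.

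The proteins of CAM1 to CAM7 are nearly the same. Translated from the RefSeq annotation of TAIR10.1, each has 149 residues, against 151 for CAM8 and for CAM9. CAM1 and CAM4 encode 1 identical protein, and CAM2, CAM3 and CAM5 another. CAM7 differs from the protein of CAM2, CAM3 and CAM5 at 1 residue, from CAM6 at 1 and from the protein of CAM1 and CAM4 at 4. CAM8 is 71.5% identical to CAM7 and CAM9 is 49.7% identical to it. At the level of coding DNA the copies have drifted apart: identity among CAM1 to CAM7 lies between 82.7% and 91.3%, and the longest run of bases that 2 of them share is 41 nucleotides (CAM2 and CAM3). CAM7 shares at most 26 nucleotides in a row with any other member. How the authors' counting treated reads that match several copies is not stated in the labels.

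Upstream sequence is shown for CAM7, whose level differed most between genotypes, for CAM9, which rose in blue light in wild type, and for a pair of genes whose promoters CAM7 has been reported to bind, CAB1 (LHCB1.3), which encodes a chlorophyll-binding protein of the light-harvesting complex, and HY5. Each is the 250 bases before the annotated start in RefSeq TAIR10.1, read 5′ to 3′ on the gene's strand, and capitals mark a searched motif. CAM7 lies at chr3:15666470-15666719 (minus strand), CAM9 at chr3:19269659-19269908 (minus), LHCB1.3 at chr1:10477635-10477884 (plus) and HY5 at chr5:3595074-3595323 (minus).
CAM7: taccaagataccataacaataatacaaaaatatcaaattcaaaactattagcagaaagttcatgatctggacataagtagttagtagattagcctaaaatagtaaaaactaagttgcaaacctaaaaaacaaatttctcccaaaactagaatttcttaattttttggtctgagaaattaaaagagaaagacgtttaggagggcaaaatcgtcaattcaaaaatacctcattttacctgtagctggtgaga
CAM9: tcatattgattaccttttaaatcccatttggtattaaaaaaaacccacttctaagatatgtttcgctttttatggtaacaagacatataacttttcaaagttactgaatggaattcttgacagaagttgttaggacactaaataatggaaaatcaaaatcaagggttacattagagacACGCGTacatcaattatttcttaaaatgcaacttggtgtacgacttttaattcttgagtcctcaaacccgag
LHCB1.3: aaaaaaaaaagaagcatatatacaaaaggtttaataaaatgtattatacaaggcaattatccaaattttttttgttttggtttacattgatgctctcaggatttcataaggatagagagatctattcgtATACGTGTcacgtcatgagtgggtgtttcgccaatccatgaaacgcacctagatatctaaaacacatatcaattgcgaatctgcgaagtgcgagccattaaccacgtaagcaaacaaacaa
HY5: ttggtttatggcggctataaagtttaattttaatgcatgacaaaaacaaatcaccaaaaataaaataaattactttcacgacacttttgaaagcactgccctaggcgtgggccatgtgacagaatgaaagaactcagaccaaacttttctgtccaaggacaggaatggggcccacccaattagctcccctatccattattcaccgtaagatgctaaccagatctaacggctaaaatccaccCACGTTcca
Motifs were searched on both strands and chosen with earlier results known. The Z-box, ATACGTGT, was in 0.765% of the 27443 upstream sequences of protein-coding genes. It was in LHCB1.3, 121 to 114 bases before the start, and in none of the 9 calmodulin genes. The G-box, CACGTG, was in 6.49% of upstream sequences and likewise in none of the 9. The related CACGTT was in 7.54%, among them CAM2, CAM3 and HY5, where it stands 9 to 4 bases before the start. The CGCG-box, CGCG with A, C or G before it and C, G or T after it, a sequence that calmodulin-binding transcription activators recognise, was in 6.23%. Among the members it was in CAM2 and CAM3, each with CCGCGT at 2 places, and in CAM9, as ACGCGT 72 to 67 bases before its start. The Z-box, the G-box and CACGTT share the letters ACGT, but no match to any of them is a match to another. A match of letters is a description only.

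CAM7 had its highest levels in dark cry2 seedlings. The gene, chosen by these values, measured 493, 413 and 445 TPM (transcript abundance scaled for gene length and library) in the 3 cry2_dark libraries, against 174, 155 and 164 TPM in WT_dark 1-3. The lowest cry2 library stood well above the highest wild-type one. The mean was 450 ± 40.2 TPM in cry2_dark and 164 ± 9.17 TPM in WT_dark 1-3 (SD, n = 3 each), a ratio of 2.74, or 1.45 ± 0.10 (SE of the model) in log2(TPM + 1), the scale of all changes given here. WT_dark 4-6 stood lower still, at 123, 152 and 134 TPM.

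That choice named dark cry2 only, though earlier results of these data were known, and CAM7 was higher in cry2 in blue light too. The cry2_blue libraries held 208, 220 and 182 TPM of CAM7, where the WT_blue libraries held 122, 112 and 105 TPM. The groups did not overlap, as for 18.9% of genes tested that were higher in cry2_blue. The change was 0.84 ± 0.10 with an adjusted p of 0.00225 (limma across 19985 genes, Benjamini-Hochberg adjustment), in a fit that shares 1 estimate of the spread over 12 libraries. Those 12 include the dark libraries that chose CAM7, so this test is not fully independent of the choice. In a fit of the 6 blue-light libraries alone, added after the data were seen, the change was again 0.84 ± 0.12, but the adjusted p was 0.0757 and 14 genes were called in all. Calls here mean an adjusted p under 0.05.

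CAM7 was the 1 member of 9 called between cry2_blue and WT_blue, higher, where 2.61% of all genes tested were called higher and 0.736% lower. The other members did not share its difference. CAM1 had 188, 170 and 200 TPM in cry2_blue libraries, against 215, 203 and 274 TPM in WT_blue libraries. For CAM3 the cry2_blue libraries gave 164, 149 and 170 TPM and the WT_blue libraries 194, 175 and 201 TPM. For CAM4 they gave 178, 165 and 176 TPM in cry2_blue and 185, 190 and 223 TPM in WT_blue. For these 3 members every cry2_blue library lay below every WT_blue library, as for 5.35% of genes tested, yet none passed the test (adjusted p 0.161, 0.157 and 0.231 in limma). CAM2, CAM5, CAM6, CAM8 and CAM9 overlapped between the genotypes, with changes between -0.17 and 0.07. The median change of the 9 was -0.11, beside 0.11 over all genes.

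In darkness the remaining members differed less from wild type than CAM7 did. CAM5 measured 229, 204 and 236 TPM in cry2_dark, against 163, 164 and 165 TPM in WT_dark 1-3, a change of 0.44 ± 0.08. CAM4 measured 247, 227 and 224 TPM in cry2_dark, against 192, 180 and 201 TPM in WT_dark 1-3, a change of 0.28 ± 0.09. CAM1, CAM2, CAM6 and CAM9 were higher by 0.17 to 0.24, also without overlap. CAM3 (0.06 ± 0.09) and CAM8 (0.81 ± 0.30) overlapped between the groups. In all, 7 of 9 members were higher in cry2_dark with no overlap, where 28.0% of genes tested were. As the contrast chose the family, nothing is read from that count. The sign for CAM3 turned to -0.052 with rRNA and organelle loci left out and to -0.11 under quantile normalization. Other dark differences shrank too. Under quantile normalization CAM1 came to 0.05, CAM2 to 0.11, CAM4 to 0.15 and CAM5 to 0.32, and CAM6 came to 0.06 with those loci left out. CAM7 kept 1.33 with those loci left out and 1.31 under quantile normalization.

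**Figure D1:**
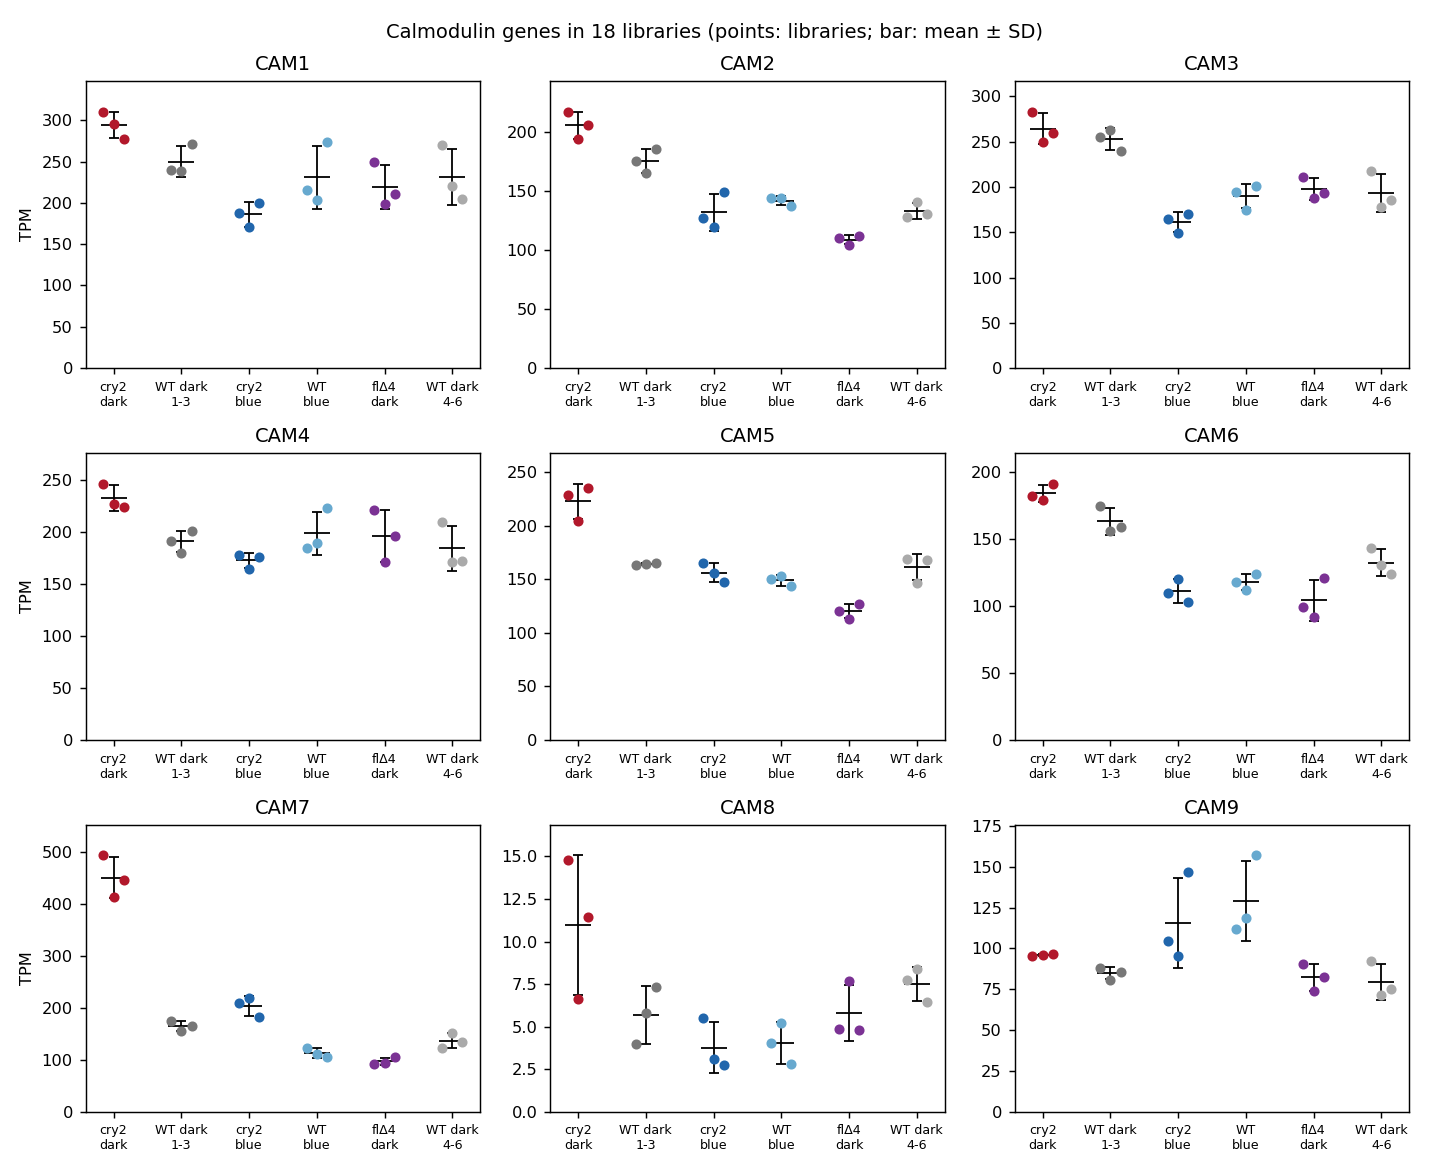
TPM of each calmodulin gene (y axes, linear, from 0) in the 18 libraries, grouped along the x axis, with points for libraries and bars for mean ± SD. CAM7 stands at 413 to 493 TPM in cry2_dark, above every other group, and CAM9 is highest in the blue-light groups.

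Blue light came with lower CAM7 in both genotypes. Relative to darkness, CAM7 differed by -1.14 ± 0.10 in cry2 (mean 203 TPM in blue light, 450 TPM in darkness) and by -0.54 ± 0.10 in wild type (113 TPM in blue light, 164 TPM in WT_dark 1-3). Against WT_dark 4-6 the wild-type change was -0.27 ± 0.12. Dark cry2 and dark wild-type libraries chose the gene, and the labels give dark wild type as 1 group, so no test of CAM7 against any dark library is given. The highest WT_blue library (122 TPM) lay just under the lowest WT_dark 4-6 library (123 TPM), a downward separation that 31.8% of genes tested showed. Ordered by mean, CAM7 ran from cry2_dark through cry2_blue (203 ± 19.3 TPM), WT_dark 1-3, WT_dark 4-6 (136 ± 14.3 TPM) and WT_blue (113 ± 8.81 TPM) to fl4_dark, the label used here for flΔ4 in darkness (96.7 ± 7.24 TPM). Among neighbours in this order, WT_blue and fl4_dark were the pair whose libraries overlapped.

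In cry2 seedlings nearly the whole family was lower after blue light. Of the 8 members tested, 7 fell relative to cry2_dark and 0 rose, where 30.2% of all genes tested fell and 25.8% rose. CAM1, which encodes the same protein as CAM4, measured 188, 170 and 200 TPM in the cry2_blue libraries, against 310, 295 and 277 TPM in cry2_dark (-0.66 ± 0.12, adjusted p = 0.00037, limma). CAM2 measured 127, 120 and 149 TPM in the cry2_blue libraries, against 217, 194 and 206 TPM in cry2_dark (-0.64 ± 0.09). CAM3 measured 164, 149 and 170 TPM in the cry2_blue libraries, against 283, 250 and 260 TPM in cry2_dark (-0.71 ± 0.09). In each of these genes all blue-light libraries lay below all dark ones, as for 34.6% of genes tested. CAM4, CAM5 and CAM6 fell by 0.43, 0.51 and 0.73 on the log2 scale. CAM8, the divergent member of low level, measured 5.50, 3.07 and 2.72 TPM in the cry2_blue libraries, against 14.8, 6.63 and 11.4 TPM in cry2_dark (-1.31 ± 0.30, adjusted p = 0.00307, limma). CAM9 alone overlapped (0.24 ± 0.15, adjusted p = 0.20). The median change of the 9 was -0.66, beside -0.05 over all genes. These dark cry2 libraries are the ones in which CAM7 was chosen for its high level, and 7 members stood above WT_dark 1-3 there without overlap. A fall from them is thus not independent of that choice, for the other members as well.

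In wild type, which members passed the test in blue light depended on the dark set. Against WT_dark 1-3, CAM2, CAM3 and CAM6 fell and CAM9 rose among 8 members tested, where 32.9% of genes tested fell and 28.7% rose. CAM6 measured 118, 112 and 124 TPM in WT_blue, against 175, 156 and 159 TPM in WT_dark 1-3 (-0.46 ± 0.09, adjusted p = 0.0005, limma). CAM3 measured 194, 175 and 201 TPM in WT_blue, against 256, 263 and 239 TPM in WT_dark 1-3 (-0.41 ± 0.09, adjusted p = 0.00167, limma). CAM2 measured 144, 144 and 137 TPM in WT_blue, against 176, 166 and 185 TPM in WT_dark 1-3 (-0.30 ± 0.09, adjusted p = 0.0133, limma). The CAM2 call was lost without WT_dark replicate 3 (adjusted p = 0.055), and CAM1 was called lower without WT_blue replicate 3 (adjusted p = 0.0328). Against WT_dark 4-6 none of these 3 was called, with changes of 0.09, -0.02 and -0.16 for CAM2, CAM3 and CAM6, and 1 member of 8 was called at all, where 7.12% of genes tested rose and 10.3% fell. The dark sets themselves were apart for these genes: WT_dark 1-3 lay above WT_dark 4-6 without overlap for CAM2 (by 0.40), CAM3 (0.39), CAM6 (0.30) and CAM7 (0.27), as did 25.9% of all genes, while the median over all genes was -0.09.

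CAM9 was the member that rose in blue light against both dark sets. It measured 112, 119 and 157 TPM in WT_blue, against 88.1, 80.9 and 85.4 TPM in WT_dark 1-3 and 92.4, 71.3 and 74.9 TPM in WT_dark 4-6. Every blue-light library lay above every dark wild-type one. Such a separation upward was seen for 29.9% of genes against WT_dark 1-3 and for 11.8% against WT_dark 4-6. The change was 0.59 ± 0.15 against WT_dark 1-3 (adjusted p = 0.00473, limma) and 0.69 ± 0.18 against WT_dark 4-6 (adjusted p = 0.024, limma), comparisons that share the WT_blue libraries. The second call was lost without WT_blue replicate 3, WT_dark replicate 5 or WT_dark replicate 6 (adjusted p 0.0801, 0.0934 and 0.0758). In cry2, CAM9 measured 105, 95.5 and 147 TPM in blue light, against 95.5, 96.2 and 96.7 TPM in darkness.

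The light response of cry2 minus that of wild type was negative for all 8 members tested, between -0.90 and -0.26, but none passed the test, where 1.51% of genes tested were called lower and 1.3% higher. Without adjustment, 5 members had p under 0.05, all lower (limma). The share of all genes under that unadjusted rule was not worked out, so nothing is read from such counts, here or below. The smallest adjusted p was that of CAM4, at 0.0688 for a difference of -0.48 ± 0.13, and it was 0.0458 without WT_blue replicate 3. With WT_dark 4-6 as the dark wild type, 5 members were called lower and 4472 genes in all. CAM7 differed by -0.60 ± 0.14, given as description. This difference contains the dark contrast that chose the family, in which 7 members were higher in cry2_dark without overlap. Its signs, calls and p-values are thus not independent of that choice, and nothing is read from them.

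**Figure D2:**
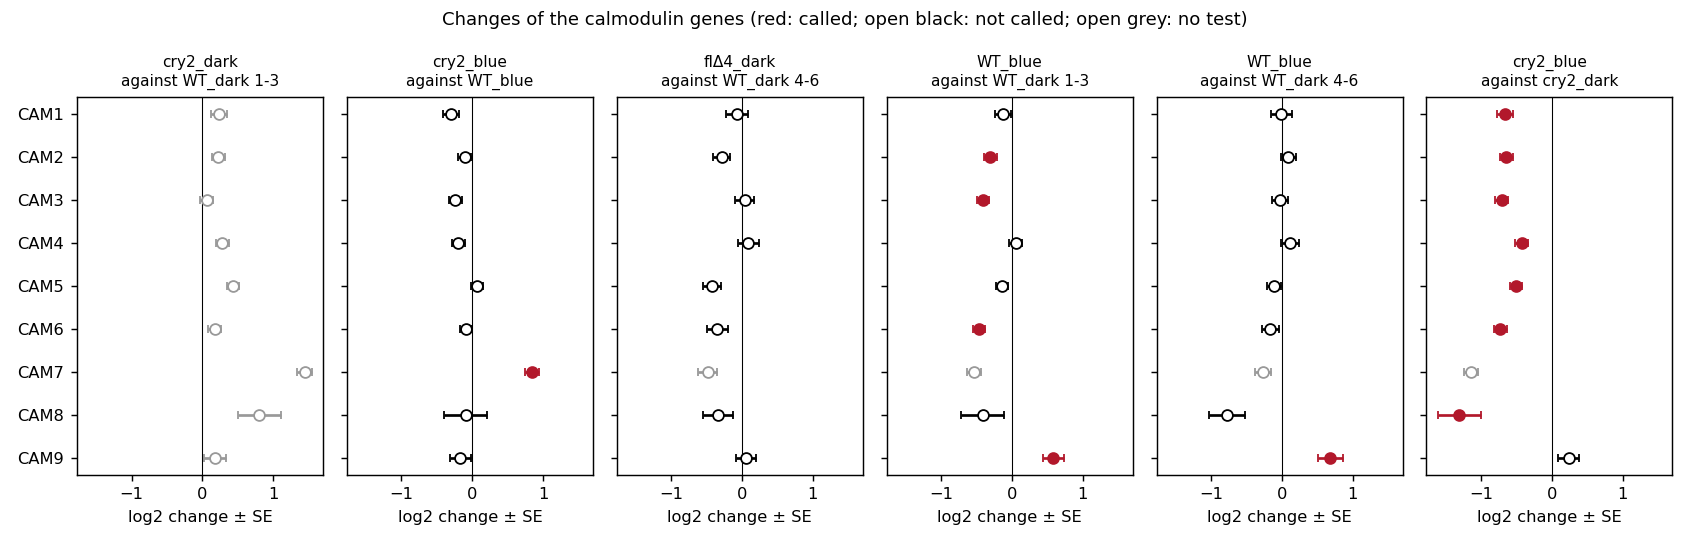
Change of each calmodulin gene in log2(TPM + 1) ± SE of the model (x axis) in 6 comparisons, with filled red points for calls, open black points for members not called and open grey points where no test is given. CAM7 is the filled point in cry2_blue against WT_blue (0.84), and 7 members are filled on the lower side in cry2_blue against cry2_dark.

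In the flΔ4 mutant none of the 8 members tested passed against WT_dark 4-6, and 0.304% of all genes tested were called (limma). CAM7 measured 91.4, 93.8 and 105 TPM in flΔ4, against 123, 152 and 134 TPM in WT_dark 4-6 (-0.49 ± 0.13, with no test). CAM5 measured 121, 113 and 127 TPM in flΔ4, against 169, 147 and 168 TPM in WT_dark 4-6 (-0.42 ± 0.13, adjusted p = 0.137, limma). Both genes, and CAM2 (-0.29 ± 0.12) and CAM6 (-0.35 ± 0.14), lay lower in flΔ4 without overlap, as did 15.5% of genes tested. The 3 tested among them had an unadjusted p under 0.05 (limma), a rule whose share over all genes was not worked out. Without flΔ4 replicate 3 again none of the 8 passed, while 2940 genes were called in all. Against WT_dark 1-3, 4 members were called lower, CAM2, CAM3, CAM5 and CAM6, and 9790 genes in all, beside 59 against WT_dark 4-6. The share of all genes called lower against WT_dark 1-3 was not worked out, so nothing is read from that count of members.

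Summed over CAM1 to CAM7, calmodulin transcripts came to 1763 to 1960 TPM in cry2_dark, against 1323 to 1386 TPM in WT_dark 1-3. Sums were worked out on the TPM of the authors only, not under the other scalings. In blue light the sum was 1100 to 1141 TPM in cry2, against 1089 to 1208 TPM in wild type, so the genotypes overlapped there. The sum contains CAM7, chosen for its high level in dark cry2. Summed over CAM1 to CAM6 alone, cry2_blue had 881 to 945 TPM, below the 977 to 1103 TPM of WT_blue. On that sum cry2_dark had 1350 to 1467 TPM, against 1168 to 1222 TPM in WT_dark 1-3. With CAM7 included, the sum was 962 to 1104 TPM in flΔ4, against 1118 to 1260 TPM in WT_dark 4-6. The share of CAM7 in the pool of CAM1 to CAM7 was 23.4% to 25.1% in cry2_dark, against 11.7% to 12.6% in WT_dark 1-3. In blue light it was 16.1% to 20.0% in cry2, against 8.67% to 10.8% in wild type, and in darkness 8.28% to 9.84% in flΔ4, against 9.78% to 13.3% in WT_dark 4-6. By mean TPM, CAM7 ranked 1 among the 9 members in both cry2 groups, 5 in both dark wild-type sets, 7 in flΔ4 and 8 in WT_blue. CAM8 ranked 9 in every group.

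**Figure D3:**
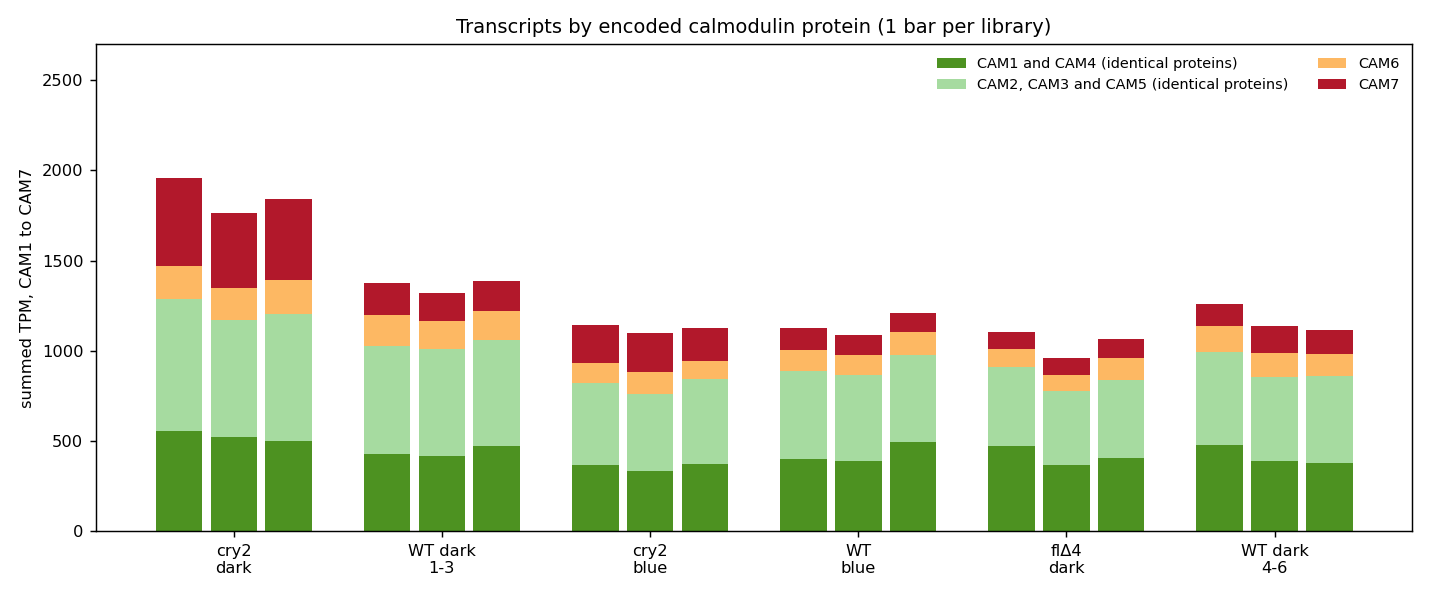
Summed TPM of CAM1 to CAM7 (y axis, from 0) with 1 stacked bar per library, coloured by the protein encoded. The CAM7 segment is 23.4% to 25.1% of the bar in cry2_dark and 11.7% to 12.6% in WT_dark 1-3, while the whole bars in blue light overlap between cry2 and wild type.

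Within the family, CAM5 followed CAM7 most closely over the 18 libraries, with a Pearson correlation of 0.89 in log2(TPM + 1), and CAM9 least, at 0.03. CAM2 (0.78) and CAM6 (0.72) came next, and CAM1, CAM3, CAM4 and CAM8 lay between 0.41 and 0.49. Among the 15212 genes that averaged 5 TPM or more, the 5 whose pattern was most like that of CAM7 were AT4G14420 (0.95), AT2G20515 (0.93), AT3G53650 (0.92), CB5-B (AT2G32720, 0.92) and AT4G12545 (0.92). RefSeq annotates them as an HR-like lesion-inducing protein-like protein, a pollen Ole e I family protein, a histone superfamily protein, cytochrome b5 isoform B and a lipid-transfer superfamily protein. AT4G12545 averaged 41.0 TPM in cry2_dark, against 9.24 TPM in WT_dark 1-3, and 18.2 TPM in cry2_blue, against 2.42 TPM in WT_blue. The libraries in these correlations share genotype, light and library series, and the likeness rests on the same cry2 libraries that chose CAM7.

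Other calcium-sensor genes moved in both directions in light. Of 34 calmodulin-like genes tested (48 listed), 11 rose and 11 fell in WT_blue against WT_dark 1-3, 8 rose and 2 fell (of 33) against WT_dark 4-6, and 9 rose and 12 fell in cry2_blue against cry2_dark. Over all genes tested, 28.7% rose and 32.9% fell in the first comparison, 7.12% and 10.3% in the second, 25.8% and 30.2% in the third. The counts against WT_dark 1-3 and in cry2 lie near these shares, so nothing about the list is read from them. CML38, a calmodulin-like gene known from wounding and low oxygen, measured 14.2 to 22.0 TPM in WT_blue, against 0.38 to 0.98 TPM in WT_dark 1-3 (3.38 ± 0.22), while WT_dark 4-6 had 3.54 to 5.02 TPM (1.76 ± 0.25). CML37, its close relative, measured 12.1 to 15.2 TPM in WT_blue, against 0.26 to 0.33 TPM in WT_dark 1-3 (3.48 ± 0.31), while WT_dark 4-6 had 0.42 to 1.43 TPM (3.01 ± 0.44). AT1G12310, an EF-hand protein gene, fell in cry2_blue to 60.3 to 63.9 TPM, against 123 to 136 TPM in cry2_dark (-1.07 ± 0.10). Between cry2_blue and WT_blue 2 of the 34 were called higher, the EF-hand genes AT3G47480 (0.89 ± 0.17) and AT4G26470 (0.72 ± 0.18), and 1 lower, AT3G03000 (-0.69 ± 0.15). Those 3 loci were named after their values were seen. Of all genes tested there, 2.61% were called higher and 0.736% lower. In flΔ4 0 of 31 passed (2 higher and 6 lower at an unadjusted p under 0.05, limma).

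Among the 9 members, 3 lie near a calmodulin-like gene on the same strand. CML12 (TCH3), a gene first known for its induction by touch, lies 482 bases from CAM2. CML12 measured 283 to 378 TPM in WT_blue, where WT_dark 1-3 had 60.7 to 69.9 TPM (2.32 ± 0.29, adjusted p = 5.49e-05, limma), and rose by 2.18 ± 0.31 against WT_dark 4-6. In cry2_blue CML12 measured 188 to 503 TPM, against 98.7 to 138 TPM in cry2_dark (1.26 ± 0.29). CAM2 fell or was not called in the same comparisons. CML24 (TCH2), next to CAM1, changed by 0.01 ± 0.13 against WT_dark 1-3 (adjusted p = 0.97, limma) and rose by 0.64 ± 0.15 against WT_dark 4-6 (adjusted p = 0.0124, limma). CML23, next to CAM4, was not called in these 3 light comparisons. CAM2 is overlapped on the other strand by a pair of genes that reached at most 5.48 TPM.

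Among 34 genes of calmodulin-binding proteins tested (36 listed), 10 rose and 12 fell in WT_blue against WT_dark 1-3, 2 rose and 5 fell against WT_dark 4-6, and 10 rose and 11 fell in cry2_blue against cry2_dark. These counts lie near the shares over all genes (28.7% and 32.9%, 7.12% and 10.3%, 25.8% and 30.2%), so nothing about the list is read from them. GAD1, glutamate decarboxylase activated by calcium-loaded calmodulin, measured 38.6 to 41.7 TPM in WT_blue, against 170 to 175 TPM in WT_dark 1-3 (-2.09 ± 0.10), but 55.1 to 59.1 TPM in WT_dark 4-6 (-0.51 ± 0.19, adjusted p = 0.0755, limma). GAD1 was the 1 gene of the list called between cry2_blue (51.3 to 68.5 TPM) and WT_blue, higher by 0.57 ± 0.10 (adjusted p = 0.0117, limma). Of all genes tested, 2.61% were called higher there. DWF1, a calmodulin-binding enzyme of brassinosteroid synthesis, measured 91.4 to 122 TPM in WT_blue, against 312 to 331 TPM in WT_dark 1-3 (-1.55 ± 0.13), while WT_dark 4-6 had 155 to 213 TPM (-0.74 ± 0.20). ACA2, a calmodulin-activated calcium pump, fell by 1.14 against WT_dark 1-3, and its change against WT_dark 4-6 was -0.32 ± 0.18 (adjusted p = 0.222, limma). ACA8, another such pump, fell in cry2_blue to 17.4 to 20.6 TPM, against 32.5 to 45.5 TPM in cry2_dark. IQM1, an IQ-motif protein, rose by 1.75 ± 0.19 against WT_dark 1-3, by 1.70 ± 0.30 against WT_dark 4-6 and by 1.40 ± 0.19 in cry2. Against WT_dark 4-6 the genes that rose were IQM1 and MLO2, and those that fell were ACA4, ACA8, DWF1, PICBP and CRLK1, named after their values were seen where they changed less than 2-fold. In the difference of the light responses 1 of the 34 was called, CAMTA5, a calmodulin-binding transcription activator (0.59 ± 0.13, named after its value was seen), which was 0.21 ± 0.15 (adjusted p = 0.333, limma) with WT_dark 4-6 as the dark wild type. Over all genes tested, 1.3% were called higher in that difference. In flΔ4 0 of 34 passed, with 1 higher and 4 lower at an unadjusted p under 0.05 (limma).

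Calcineurin B-like calcium sensors, which work through their own family of kinases, moved in both directions too. Of 7 tested (10 listed), 2 rose and 1 fell in WT_blue against WT_dark 1-3, 0 rose and 1 fell against WT_dark 4-6, and 1 rose and 1 fell in cry2_blue against cry2_dark. The shares over all genes tested were 28.7% and 32.9%, 7.12% and 10.3%, and 25.8% and 30.2%. With 7 genes, nothing about the list is read from these counts. CBL10 measured 16.7 to 33.5 TPM in WT_blue, against 5.68 to 6.52 TPM in WT_dark 1-3 (1.88 ± 0.22), but 23.8 to 31.9 TPM in WT_dark 4-6. The others called, named after their values were seen, were CBL6 (0.78 ± 0.25) and CBL2 (-0.38 ± 0.13) in WT_blue against WT_dark 1-3, CBL9 (-0.61 ± 0.14) against WT_dark 4-6 and CBL2 (-0.36 ± 0.13) in cry2_blue against cry2_dark. None of the 7 passed between cry2_blue and WT_blue (1 higher at an unadjusted p under 0.05, limma) or in flΔ4 (1 lower).

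The 7 genes of Z-box factors and reported CAM7 target promoters were HY5, HYH, GBF1, MYC2, COP1, RBCS1A and LHCB1.3. HY5 measured 311 to 336 TPM in cry2_blue, against 49.3 to 51.6 TPM in cry2_dark (2.67 ± 0.08). In WT_blue it measured 336 to 390 TPM, against 64.2 to 70.6 TPM in WT_dark 1-3 (2.40 ± 0.08), and WT_dark 4-6 had 103 to 138 TPM (1.56 ± 0.14). HYH, the homologue of HY5, rose by 2.54 ± 0.14 in cry2 and by 3.87 ± 0.14 in wild type against WT_dark 1-3, and the difference of these responses was -1.33 ± 0.20 (adjusted p = 0.00838, limma). HYH measured 23.5 to 30.2 TPM in WT_dark 1-3, where WT_dark 4-6 had 124 to 191 TPM, and with WT_dark 4-6 as the dark wild type the difference reversed to 1.11 ± 0.25 (adjusted p = 0.00863, limma). GBF1, a G-box factor, COP1, an E3 ubiquitin ligase that acts on HY5, and RBCS1A, a Rubisco small subunit gene, also rose in both genotypes against those dark groups, by 0.46 to 1.00. MYC2, a bHLH factor, and LHCB1.3 were not called there. Against WT_dark 4-6 HY5, HYH and MYC2 rose. None of the 7 passed between cry2_blue and WT_blue (1 lower at an unadjusted p under 0.05, limma), and LHCB1.3 changed by -0.24 ± 0.14 there. CAM7 did pass there, but not in the fit of the 6 blue-light libraries alone (adjusted p = 0.0757, limma). In darkness, described without test, HYH measured 60.6 to 69.6 TPM in cry2_dark, above WT_dark 1-3 but below WT_dark 4-6. HY5 (-0.41), GBF1 (-0.49) and MYC2 (-0.48) lay below WT_dark 1-3 and RBCS1A (0.145) above, without overlap. COP1 and LHCB1.3 overlapped. Whether these genes follow CAM7 was not tested. In flΔ4 none of the 7 passed (HY5 0.65 ± 0.17, adjusted p = 0.114, limma).

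**Figure D4:**
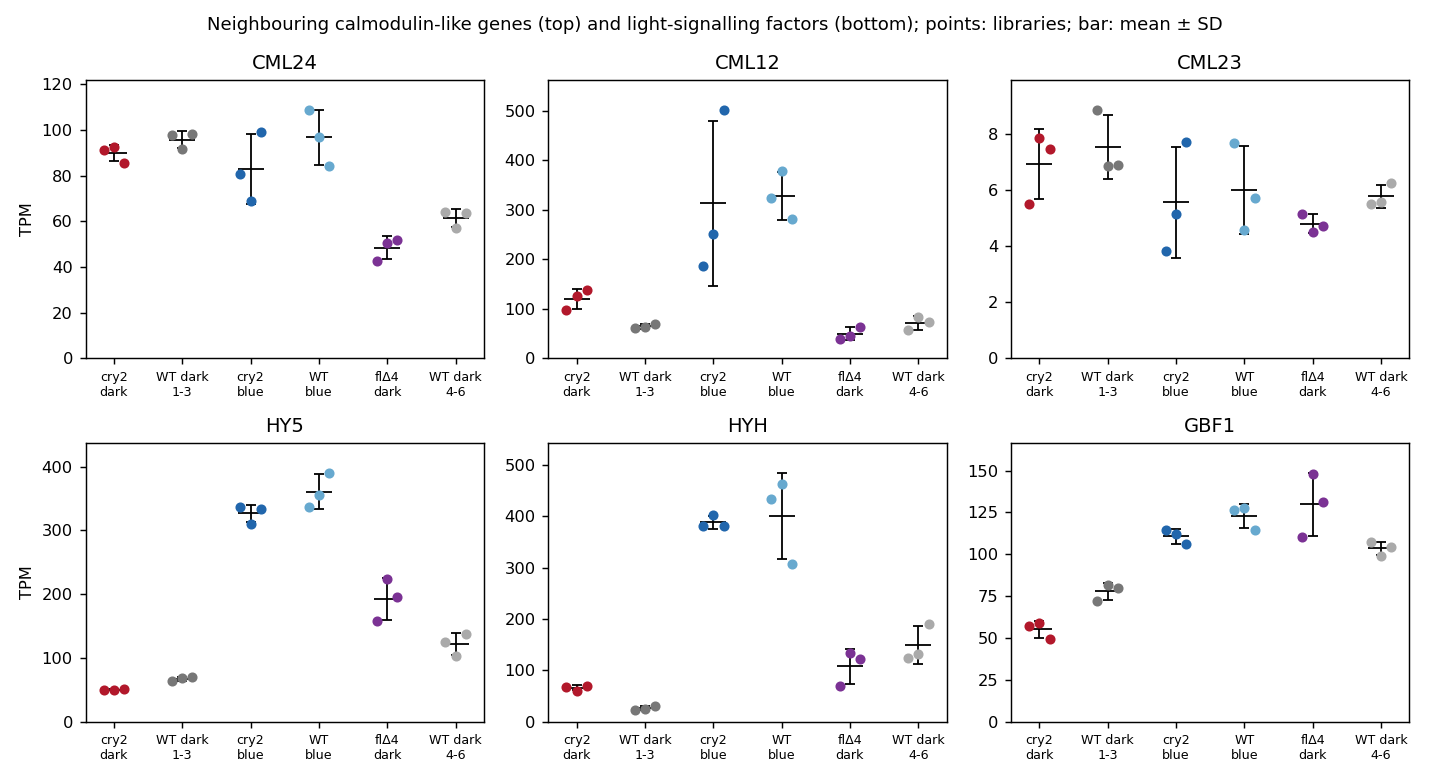
TPM (y axes, linear, from 0) of calmodulin-like genes that neighbour a calmodulin gene (top row) and of HY5, HYH and GBF1 (bottom row) by group, with points for libraries and bars for mean ± SD. CML12 stands at 283 to 378 TPM in WT_blue, far above its 60.7 to 69.9 TPM in WT_dark 1-3, while CML24 stands at 84.3 to 109 TPM in WT_blue and at 91.4 to 98.2 TPM in WT_dark 1-3.

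Several facts of the libraries move with these results. CRY2 was at 0 to 0.06 TPM in the cry2 libraries, against 73.3 to 110 TPM in WT_blue and WT_dark 1-3, and the neighbouring loci AT1G04410 and AT1G04420 were at most 0.22 TPM in cry2 as well, so a difference from wild type cannot be assigned to CRY2 alone. In flΔ4, AT5G43870, annotated as an auxin canalization protein gene of the DUF828 family, was at 0.13 to 0.37 TPM, against 2.81 to 4.62 TPM in WT_dark 4-6, and FKD1 at 3.70 to 5.76 TPM, against 5.67 to 8.76 TPM. The 5 rRNA loci summed to 12231 to 15977 TPM in cry2_dark, where WT_dark 1-3 had 56392 to 65586 TPM, and over both blue-light groups the sum was 7347 to 13617 TPM. Organelle loci summed to 4702 to 9007 TPM in cry2_dark, where WT_dark 1-3 had 34290 to 36382 TPM. All blue-light libraries carry 1 series of names in the file headers and the dark ones carry others, so the effects of light and of library series cannot be told apart. The 7 root markers, mostly PYK10, summed to 3812 to 7332 TPM over all sets, while PLT1, PLT2 and COBL9 stayed at or under 1.04 TPM. Of the other root markers, CASP1 was at 27.0 to 36.4 TPM in WT_blue, against 150 to 180 TPM in WT_dark 1-3, but WT_dark 4-6 had 21.2 to 47.2 TPM. In cry2_blue it was at 26.8 to 41.8 TPM, against 114 to 157 TPM in cry2_dark. SHR was at 10.7 to 12.6 TPM in WT_blue, against 28.8 to 29.5 TPM in WT_dark 1-3, and WT_dark 4-6 had 15.5 to 18.4 TPM. In cry2_dark SHR was at 22.41 to 26.55 TPM. The 4 shoot and epidermis markers summed to 446 to 549 TPM in cry2_dark, against 554 to 611 TPM in WT_dark 1-3. Their sum was 153 to 191 TPM in cry2_blue, against 112 to 147 TPM in WT_blue, and 95.7 to 189 TPM in flΔ4, against 196 to 367 TPM in WT_dark 4-6. The part of rRNA and marker levels in the calmodulin results was not tested.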

How the data were processed

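The labels describe 18 libraries of total RNA, extracted with TRIzol and made into libraries with a stranded mRNA kit from Illumina. Per the submitters' processing notes, fastp, HISAT2 and StringTie were used with TAIR10. Versions are not given in the sources used. TPM were deposited by the authors for each locus and library. TPM keep no read totals, so depth and counting error are unknown, and precision rests on the spread of libraries. As TPM are shares, abundant RNAs move all other values.

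Members and gene lists were chosen with earlier results of these data known. Named genes were all 9 members, the 5 genes most like CAM7 and neighbouring calmodulin-like genes. Per list and comparison, the rule also selected up to 4 called genes of smallest p that changed at least 2-fold. Not all of these are given: those left out include CML40, CML44, CML45, CML46 and PDF1. The lists, written from general knowledge, were calmodulin-like genes, calmodulin-binding proteins, calcineurin B-like sensors, Z-box factors with reported CAM7 target promoters, root markers, and shoot and epidermis markers.

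Values were log2(TPM + 1). limma 3.58.1 (R 4.3.3), using robust moderation and a trend of variance with mean, was fitted to all loci with a mean of at least 1 TPM in the libraries of a fit, which all 9 members passed. Calls needed a Benjamini-Hochberg adjusted p under 0.05. One fit held WT_dark 1-3, cry2_dark, WT_blue and cry2_blue, another fl4_dark and WT_dark 4-6, and another WT_blue, WT_dark 4-6, cry2_blue and fl4_dark. CAM7 was to be tested against WT_dark 4-6 as well, but as these may have entered its choice it is only described there. The fit was tested on simulated data. Same-numbered libraries deviated together weakly (r from -0.057 to 0.234), and numbers were not taken as pairs. The highest values, 0.234 and 0.219, were in cry2_blue against WT_blue. Libraries of unlike number were not compared in this way, so pairing is not excluded. Alternatives changed the pseudocount, filter, scaling, moderation, dark set and libraries, and added a replicate block. Sequences came from RefSeq TAIR10.1, looked up by locus. No coordinates were converted, and proteins were translated from the isoform nearest to the commonest length in the family, for comparison only.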

Additional observations from a re-analysis of the deposited data

Results flagged for a closer look

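CAM5 in the 6 dark wild-type libraries had 1 value apart from the others: WT_dark replicate 5 measured 147.08 TPM, and the other 5 lay between 163 and 169 TPM. Chance sets about 1 in 20 groups apart in this way. Without that library CAM5 was still not called in flΔ4 or in WT_blue against WT_dark 4-6.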

How the results depend on the processing

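CAM7 kept its direction between cry2_blue and WT_blue under every alternative run, and its call under every one but the fit of the 6 blue-light libraries alone, where 0 members were called (CAM7 0.84, adjusted p = 0.0757, limma). With a replicate block the CAM7 change was 0.84 (adjusted p = 0.00231), and the block changed no member's call. No paired analysis was possible for comparisons with WT_dark 4-6 because those libraries share no number with another group, so the planned block was not run there. In cry2_dark against WT_dark 1-3, CAM7 was 1.31 higher under quantile normalization, 1.72 against WT_dark 4-6 and 1.58 against all 6 dark libraries, and CAM3 turned to -0.052 with rRNA and organelle loci left out and -0.11 under quantile normalization. CAM1, CAM2, CAM4, CAM5 and CAM6 shrank under at least 1 of these scalings. Against all 6 dark libraries 1 member fell in WT_blue (CAM6). With the other dark set 5 members were called lower in the difference of light responses and 4 in flΔ4, where CAM3 turned to -0.35. The cause was not tested. For these changes of dark set the share of all genes called lower was not worked out, so nothing is read from the counts of members. CAM5 was called lower in WT_blue with rRNA and organelle loci left out (adjusted p = 0.0139) and under quantile normalization (0.0464). Leaving out 1 library gave 2 to 4 members lower in WT_blue against WT_dark 1-3, 0 to 1 higher and 0 to 1 lower against WT_dark 4-6 (CAM8 without WT_blue replicate 2, adjusted p = 0.0482), 0 to 1 lower in the difference of responses, 0 in flΔ4 and 7 in cry2_blue against cry2_dark. Over all genes, calls between cry2_blue and WT_blue ran from 14 to 790 (521 higher and 147 lower in the fit reported, 226 higher and 220 lower under quantile normalization), those in flΔ4 from 14 to 9790 (2940 without flΔ4 replicate 3 and 331 without WT_dark replicate 4), those in the difference of responses from 4 to 4472. Depth is unknown, so CAM8, at 2.72 to 14.8 TPM, has a counting error that cannot be given.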
